A study of Mus musculus with 19 samples.

Results

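Elk1 encodes a transcription factor of the ETS family and was represented by 1 probe set, 17540535, of the 8751 in the deposited table, the 1 row whose only gene symbol on the platform was Elk1. No row with several symbols included it, and no other row repeated its values. Forebrain RNA had been hybridised to Affymetrix Mouse Gene 2.0 ST arrays, which measure a transcript with many short probes summarised to 1 value, and 19 arrays fell into 4 groups by genotype and treatment. There were 5 arrays of EphA4 knockout mice and 6 of wild-type littermates after sleep deprivation, and 4 of knockout and 4 of wild-type littermate controls. All were of a mixed BL6/10 background under a 12 h light and 12 h dark cycle, sleep deprivation lasted 6 h, and controls were left undisturbed. The labels give neither age nor sex, do not say how the EphA4 allele was inactivated, and do not say whether arrays came from separate animals. The p-values therefore cover only how much these arrays varied, which may be technical. No row carried the symbol Epha4, so the genotype labels were not checked by the missing gene.

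Elk1 binds DNA through its ETS domain and, together with serum response factor, forms the ternary complex on serum response elements. MAP kinases, chiefly ERK and also JNK and p38, phosphorylate its C-terminal activation domain, which turns on immediate early genes such as Fos and Egr1. In neurons this route links synaptic activity to transcription, and it is regulated mainly through phosphorylation of the protein, which a transcript array does not measure. EphA4 is a receptor tyrosine kinase for ephrins.

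The gene lies on chromosome X, from 20933395 to 20950608 in GRCm38.p6, per the RefSeq gene table (gene ID 13712). The 250 bases before its annotated start, on the minus strand at chrX:20950609-20950858, are shown because they are the sequence immediately upstream of the transcript measured here. They are read 5′ to 3′ along the gene, from RefSeq on GRCm38.p6, and capitals mark matches to CCAAT and to the ETS core GGAA, which reads TTCC on this strand.
Elk1 promoter: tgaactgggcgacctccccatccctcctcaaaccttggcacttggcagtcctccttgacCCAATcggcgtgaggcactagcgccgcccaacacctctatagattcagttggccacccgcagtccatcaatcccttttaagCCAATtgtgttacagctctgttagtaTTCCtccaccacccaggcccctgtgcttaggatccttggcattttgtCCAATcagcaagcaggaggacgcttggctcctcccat
The window held 3 CCAAT matches, at 191, 110 and 37 bases before the start, and 1 GGAA match at 84 bases before it. Both strands of the 250 bases were searched. CCAAT occurred at least 1 time in 33.8% of the 32851 promoter windows of the same length and 3 or more times in 2.79%, and GGAA occurred in 93.4%. GGGCGG had 1 match, at 168 bases before the start and read as CCGCCC, and occurred in 32.7% of windows. CACGTG, TGACGTCA and the CArG box, the site of serum response factor, had no match in the window, and occurred in 6.02%, 1.55% and 1.47% of windows. A match is a stretch of letters and was not tested for binding.

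Elk1 was measured with little spread between arrays. Its values ran from 9.05 to 9.61 on the log2 scale, a range of 0.56 over all 19 arrays. Its SD within groups was 0.09 log2 units, against a median of 0.17 over all rows, and 7.26% of rows had a smaller one. Among the 308 rows whose mean lay within 0.5 log2 units of that of Elk1, the median SD was 0.12 and 20.5% had a smaller SD than Elk1.

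**Figure D1:**
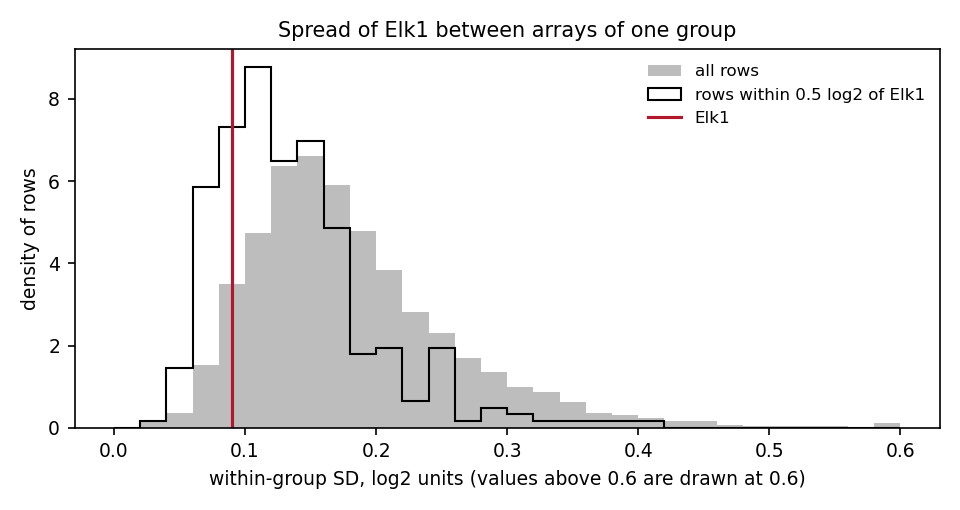
Histogram of the within-group SD of log2 expression over all 8751 rows (grey) and over the 308 rows with a mean within 0.5 log2 units of Elk1 (black outline), with density of rows on the vertical axis and values above 0.6 drawn at 0.6. The red line marks Elk1 at 0.09, left of the medians of 0.17 and 0.12.

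Array medians ran from 5.90 to 6.07 and correlations between arrays over all rows from 0.981 to 0.993. Knockout control replicate 2 had an array weight of 0.57 in limma's estimate, where the 19 weights ran from 0.56, for knockout sleep-deprived replicate 5, to 1.44. It was the lowest of its group in 34.2% of rows. Such shares depend on group size. Among the control arrays, in groups of 4, the next were wild-type replicate 2 at 29.7% and knockout replicate 4 at 29.5%. Knockout control replicate 2 was also the lowest Elk1 array, so results that rest on it are given with and without it. The labelled tissue could not be checked against its markers: 3 of 20 forebrain neuron symbols (Map2, Slc32a1 and Penk) and 0 of 46 glial, vascular, blood and hindbrain symbols had a row of their own in this incomplete table.

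Elk1 was chosen by its measured difference between sleep-deprived and control arrays averaged over genotypes, so its levels by sleep deprivation are a description with no test. In sleep-deprived knockouts it read 9.35, 9.53, 9.43, 9.40 and 9.42, against 9.32, 9.05, 9.27 and 9.27 in knockout controls, on the deposited log2 scale. All 5 sleep-deprived arrays lay above all 4 control arrays, by a gap of 0.03 between the nearest arrays. Of all rows, 3.09% were apart in this direction in the knockout. In sleep-deprived wild types Elk1 had a lowest value of 9.37, a median of 9.47 and a highest of 9.61, against 9.33, 9.32, 9.29 and 9.44 in wild-type controls. These groups overlapped: 3 of 6 sleep-deprived arrays lay above the highest control, and 3 of 4 controls lay below the lowest sleep-deprived array. All 6 sleep-deprived wild-type arrays lay above the mean of the wild-type controls. In wild type, 0.891% of rows had groups apart in this direction.

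Group means ordered the 4 groups as sleep-deprived wild type, sleep-deprived knockout, wild-type control and knockout control. The means were 9.42 ± 0.07 (SD, n = 5) in sleep-deprived knockouts, 9.48 ± 0.09 (SD, n = 6) in sleep-deprived wild types, 9.23 ± 0.12 (SD, n = 4) in knockout controls and 9.34 ± 0.07 (SD, n = 4) in wild-type controls. Every pair of neighbours in that order overlapped in range, while the knockout controls lay below all arrays of both sleep-deprived groups. As a difference of means, sleep deprivation went with an Elk1 level higher by 0.20 ± 0.07 (log2, SE of the fit) in the knockout, 0.13 ± 0.07 in wild type and 0.16 ± 0.05 averaged over genotypes. The averaged difference is 1.12-fold, 1.15-fold in the knockout and 1.10-fold in wild type. Without knockout control replicate 2 the knockout difference was 0.14 and the averaged one 0.13. Over all rows the median averaged difference was 0.02, 93.7% of rows had a lower one, and 0.263% of rows passed limma's test at an adjusted p of 0.05 in that comparison.

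**Figure D2:**
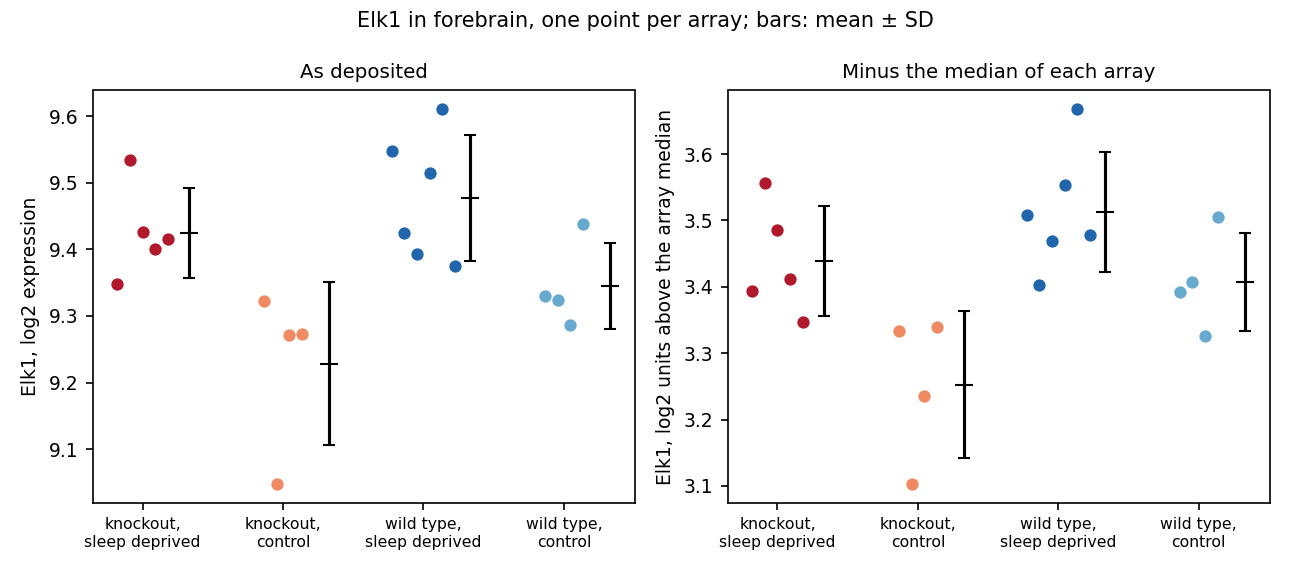
Elk1 on each array in log2 units, by group, as deposited (left) and minus the median of the same array (right), with the group mean ± SD as bars. As deposited, the sleep-deprived knockout arrays lie from 9.35 to 9.53 and the knockout controls from 9.05 to 9.32, while the wild-type groups overlap.

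The order of the 4 group means was the same on another scale. Measured above the median of its own array, Elk1 averaged 3.44 ± 0.08 in sleep-deprived knockouts, 3.51 ± 0.09 in sleep-deprived wild types, 3.25 ± 0.11 in knockout controls and 3.41 ± 0.07 in wild-type controls (SD, n as above). Its difference with sleep deprivation was 0.19 in the knockout and 0.11 in wild type with each array centred on its median. With quantile normalization of the deposited values the knockout difference was 0.11, below the 0.16 of wild type, and the knockout groups overlapped, with a lowest sleep-deprived array of 9.26 and a highest control of 9.32.

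The genotype comparison asked whether loss of EphA4 went with another Elk1 level. The gene was not chosen by this comparison, but gene and tests were chosen with earlier results of these data known. Elk1 was not called in any of the genotype comparisons. In controls it averaged 9.23 in knockouts and 9.34 in wild types, a log2 difference of -0.12 ± 0.08 (SE, 95% interval -0.27 to 0.04; limma adjusted p = 0.91). All 4 knockout controls lay below the mean of the wild-type controls, and 3 of them below the lowest wild-type control, but the groups overlapped. An exact two-sided permutation test of this difference gave p = 0.0571, adjusted p = 0.114 over the 2 conditions, where the smallest p that 4 against 4 arrays allow is 0.0286. With the permutation p of the sleep-deprived arrays at 0.329, adjustment lifts even that smallest p above 0.05. This test therefore could not have called a difference in controls. Without knockout control replicate 2 the difference was -0.06. Of all rows, 0% were called in this comparison and 5.44% had an unadjusted p under 0.05.

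After sleep deprivation Elk1 averaged 9.42 in knockouts and 9.48 in wild types, a log2 difference of -0.05 ± 0.06 (SE, 95% interval -0.19 to 0.08; limma adjusted p = 0.77). The exact two-sided permutation test gave p = 0.329, and adjusted p = 0.329 over the 2 conditions. Of the 5 knockout arrays 4 lay below the mean of the wild types, and 1 lay below the lowest wild type, so the groups overlapped. The difference was -0.03 without wild-type sleep-deprived replicate 5 and -0.08 without knockout sleep-deprived replicate 2. With quantile normalization it was -0.13 (limma adjusted p = 0.32). In this comparison 1.68% of all rows were called. Averaged over conditions, Elk1 was at a log2 difference of -0.08 ± 0.05 between knockout and wild type (SE, 95% interval -0.19 to 0.02; limma adjusted p = 0.65), and 0.0114% of rows were called. Without knockout control replicate 2 it was -0.05. The intervals bound the averaged change in the knockout between 0.877-fold and 1.01-fold of wild type, which does not show that the levels are alike.

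The interaction asked whether the sleep deprivation difference of Elk1 depended on genotype. It was larger in the knockout by 0.06 ± 0.10 (log2, SE; 95% interval -0.15 to 0.27; limma adjusted p = 0.84), and 0.0686% of rows were called. Without knockout control replicate 2 the interaction was 0.003, and with quantile normalization it was -0.055, of the opposite sign.

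**Figure D3:**
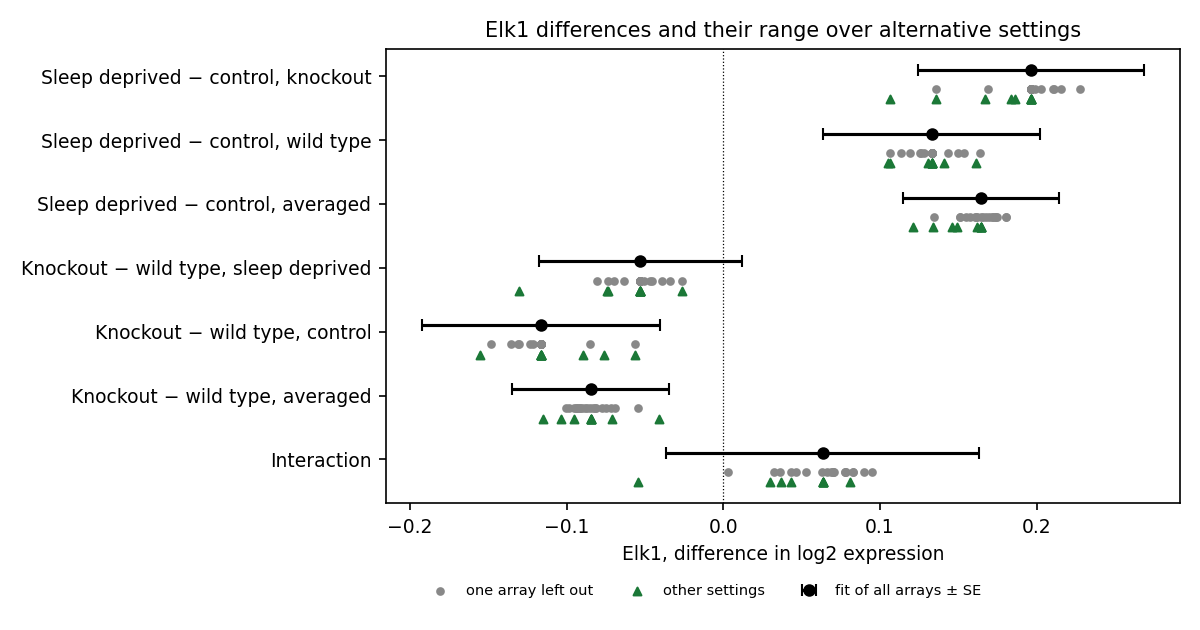
Differences in Elk1 log2 expression for sleep deprivation, genotype and their interaction: black points are the fit of all 19 arrays ± SE, grey points leave out 1 array each, and green triangles are the other settings. Sleep deprivation differences stay above 0 and genotype differences below 0 at every setting drawn, and the interaction crosses 0 with quantile normalization. Elk1 was chosen by its averaged sleep deprivation difference, so the sign of the sleep deprivation differences is a description and no support.

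Few genes of the Elk1 pathway could be read beside it. Of 172 other symbols in 7 lists of partners, kinases, phosphatases, cofactors and targets, 7 were present under their own symbol. None of the 41 symbols of the ERK cascade or the 17 of Elk1 cofactors was among them, and Fos, Egr1, Srf, Elk3 and Elk4 were not analysed here. The partners and relatives present were Mrtfb, an actin-regulated coactivator of serum response factor, and the ETS factors Ets1 and Etv1. Upstream were Map3k4, a kinase at the head of the p38 and JNK cascades, and Ppp2ca, the catalytic subunit of the phosphatase PP2A. The targets of serum response factor were Mcl1, an anti-apoptotic protein of the Bcl-2 family, and Actg1, a cytoplasmic actin.

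None of the 7 passed limma's test for sleep deprivation averaged over genotypes, against 0.263% of all rows, and 0 of 7 had an unadjusted p under 0.05, against 7.93% of rows. Their log2 changes ran from -0.07 for Ets1 (adjusted p = 0.90) to 0.07 for Map3k4 (adjusted p = 0.84), with a median of -0.03 against 0.02 over all rows. Elk1 itself was at 0.16, the difference it was chosen by, so its place above the 7 follows from that choice. In the knockout 6 of 7 had a positive sign (5 of 7 with median centring), against 53.4% of all rows. Their median there was 0.06 against 0.01 over all rows, and 0 of 7 passed, against 0.263% of rows, or had an unadjusted p under 0.05, against 11.8%. In wild type all 7 had a negative sign (6 of 7 with quantile normalization), where 55.7% of all rows were positive. Their median in wild type was -0.07 against 0.02 over all rows. In wild type 0 of 7 passed, against 0% of rows, or had an unadjusted p under 0.05, against 7.80%. Elk1 was positive in both, which its choice by the averaged difference favours.

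The largest interaction among them was that of Actg1, with a log2 change of 0.13 ± 0.11 (SE) in the knockout and -0.19 ± 0.10 in wild type, a difference of 0.31 ± 0.15 (limma adjusted p = 0.44). Actg1 averaged 10.30 ± 0.19 in sleep-deprived knockouts (SD, n = 5) and 10.08 ± 0.18 in sleep-deprived wild types (SD, n = 6), a difference with adjusted p = 0.29 in limma's test. Mcl1 had log2 changes of 0.15 ± 0.08 in the knockout and -0.07 ± 0.07 in wild type, and an interaction of 0.22 ± 0.10 (SE, limma adjusted p = 0.42). Mcl1 was the 1 gene of the 7 with an unadjusted p under 0.05 for the interaction, where 11.5% of all rows were, and Actg1 the 1 such gene for genotype after sleep deprivation, where 15.4% of rows were. All 7 interactions were positive, against 49.5% of all rows, with a median of 0.14 against -0.003 over all rows. Of the 7, 0 were called, against 0.0686% of rows. The count of positive interactions was 6 of 7 with quantile normalization or without knockout control replicate 2. The count of positive signs in the knockout was then 5 and 4 of 7. The 7 genes share the same arrays and are not independent. For genotype, 0 of 7 passed in controls, after sleep deprivation or averaged, against 0%, 1.68% and 0.0114% of all rows. Their medians were -0.09, 0.13 and 0.02, against 0.015, 0.009 and 0.015 over all rows. At an unadjusted p under 0.05 there were 0, 1 and 0 of 7, against 5.44%, 15.4% and 8.73% of all rows.

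Etv1, Ppp2ca and Actg1 had more than 1 row, and the row with the highest mean was used. For the interaction the other Etv1 row was at -0.04, against 0.08 on the row used. The second Ppp2ca row was at -0.07 for sleep deprivation averaged over genotypes, against 0.03 on the row used, and the third was at 0.05. In wild type, where all rows used were negative, the Ppp2ca row of lowest mean was at 0.05. The other Actg1 row was at -0.24 in wild type, with an unadjusted p of 0.0225 and a limma adjusted p = 0.61, and at 0.04 in the knockout, against -0.19 and 0.13 on the row used. No row of these genes was called in any comparison.

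**Figure D4:**
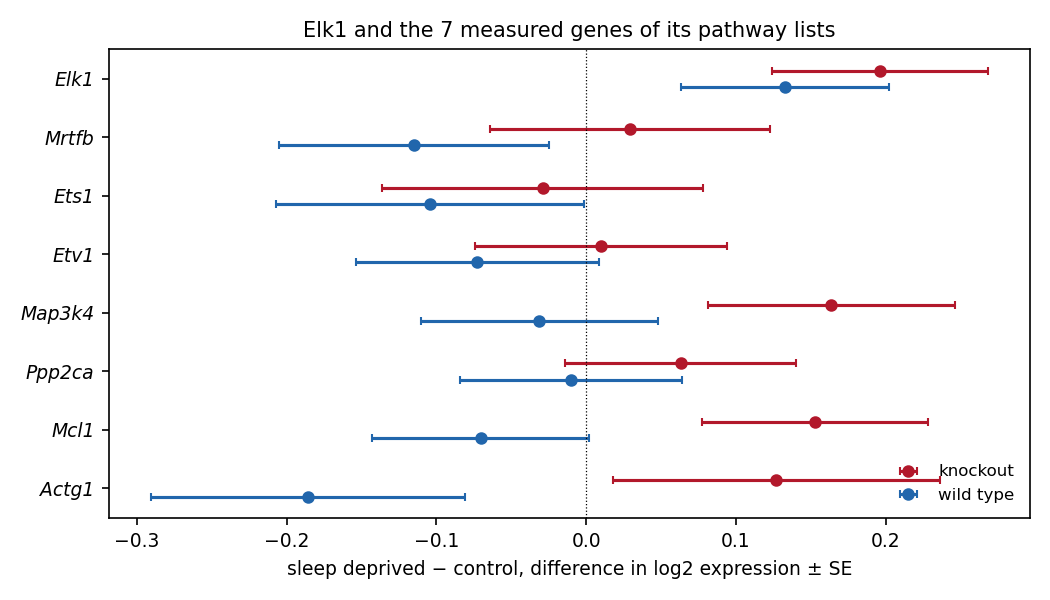
Log2 difference between sleep-deprived and control arrays ± SE for Elk1 and the 7 measured genes of its pathway lists, in the knockout (red) and in wild type (blue). Elk1, chosen by its averaged difference, is positive in both genotypes, at 0.20 and 0.13. The wild-type points of the other 7, not chosen that way, lie below 0 on the deposited scale (6 of 7 with quantile normalization), where 55.7% of all rows were positive.

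None of the 3 neuronal markers passed the test in any comparison, where 0% to 1.68% of all rows did. For sleep deprivation averaged over genotypes, Slc32a1, the vesicular GABA transporter, had a log2 change of -0.01 (adjusted p = 0.99), Map2 0.01 (adjusted p = 0.97) and Penk, the enkephalin precursor, 0.07 (adjusted p = 0.86) in limma's test. Fewer cells of a type and less RNA per cell cannot be told apart in such bulk samples. No glial, vascular or blood marker could be set beside Elk1 here, and their part in its difference was not tested.

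On chromosome X the protein-coding genes on each side of Elk1, Cfp and Uxt, were not among the genes with a symbol of their own. The nearest measured genes lay 4.41 Mb away on the side of lower coordinates (Cypt1) and 5.57 Mb away on the other (Slx). Most of the 4 nearest on each side were dim. In knockout controls Slx averaged 3.59 (log2), E330016L19Rik 4.34, Ssxb1 5.33, Cypt1 5.68 and Ssxb8 5.84, below the median of 5.96 over all rows. Rhox2-ps was near that median at 5.96, Rhox1 at 6.23 and Mid1ip1 at 7.08, where Elk1 averaged 9.23. Whether the dim genes are expressed in these samples was not tested, so their counts say little of expression around Elk1. Of the 4 nearest measured genes on each side, 0 of 8 passed for sleep deprivation averaged over genotypes in limma's test, against 0.263% of all rows, and 1 of 8 had an unadjusted p under 0.05, against 7.93%. For sleep deprivation 0 of 8 passed in the knockout, against 0.263% of rows, and 0 of 8 in wild type, against 0%. Unadjusted p were under 0.05 for 2 of 8 in the knockout, against 11.8% of rows, and for 0 of 8 in wild type, against 7.80%. For genotype 0 of 8 passed in controls, against 0% of rows, and 0 of 8 averaged over conditions, against 0.0114%. Unadjusted p were under 0.05 for 0 of 8 in controls, against 5.44%, and for 2 of 8 averaged, against 8.73%. For the interaction 0 of 8 passed, against 0.0686%, and 1 of 8 had an unadjusted p under 0.05, against 11.5%. After sleep deprivation 1 of 8, Ssxb8, was higher in the knockout, at 6.20 ± 0.20 (SD, n = 5) against 5.54 ± 0.41 in wild type (SD, n = 6), a log2 change of 0.66 ± 0.15 (SE, limma adjusted p = 0.030), beside 1.68% of all rows called. In that comparison 2 of 8 had an unadjusted p under 0.05, against 15.4% of rows. Ssxb8 belongs to a family of similar copies, whose probes may read more than 1 copy. Its call was lost on leaving out any of 5 sleep-deprived arrays, wild-type replicates 2 and 4 and knockout replicates 2, 4 and 5, with adjusted p from 0.054 to 0.073. Elk1 was at -0.05 in the same comparison.

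The genes whose values followed Elk1 most closely were ranked by Pearson correlation over the 19 arrays, among 727 genes left after predicted genes, microRNAs, small nucleolar RNAs and ribosomal protein genes were passed over. These correlations are a description: every gene was read on the same arrays, which share processing, and groups that differ by treatment contribute to them. Cxcl14, a chemokine, had the highest, at 0.81. It averaged 10.12 ± 0.07 in sleep-deprived knockouts, 10.16 ± 0.08 in sleep-deprived wild types, 10.04 ± 0.09 in knockout controls and 10.06 ± 0.03 in wild-type controls (SD). Next came Mto1, which modifies mitochondrial transfer RNA, at 0.71, Crat, carnitine acetyltransferase, at 0.70, and Ywhab, a 14-3-3 protein, at 0.70. Svop, a synaptic vesicle protein, was at 0.70 and Hspa8, the constitutive cytosolic chaperone, at 0.66. The lowest were Tmem47 at -0.65, Cwc22, a splicing factor, at -0.60, Usp49, a deubiquitinase, at -0.60 and Nova2, a neuronal splicing regulator, at -0.60. Over all 1120 other genes the median was 0.08, and 14 were above 0.6. Each gene was ranked by its row of highest mean alone, though Hspa8 had 3 rows, Cwc22 7 and Ppp2ca 3.

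How much of this likeness came from single arrays differed between genes. Leaving out the 2 arrays farthest from the Elk1 median, wild-type sleep-deprived replicate 5 and knockout control replicate 2, Cxcl14 was at 0.64 and Hspa8 at 0.63, while Mto1 was at 0.45, Crat at 0.44, Svop at 0.50 and Ywhab at 0.30. More of the correlation of Ywhab than of the other 5 rested on these arrays. With each array centred on its median, Cxcl14 was at 0.81 and Hspa8 at 0.67, and the 4 lowest genes lay between -0.47 and -0.35.

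With group means subtracted, which removes treatment and genotype, the highest were Ppp2ca at 0.75, Cxcl14 at 0.73, Nars2, a mitochondrial asparaginyl transfer RNA synthetase, at 0.72, Crat at 0.70, Six6, a homeobox factor, at 0.70 and B4gat1, a glycosyltransferase, at 0.69. The lowest were H4c8, a histone H4 gene, at -0.64, Arsj, a sulfatase, at -0.62, Abracl at -0.61 and Tmem47 at -0.61. These were much dimmer than Elk1, whose mean over arrays was 9.38. Their mean log2 values were 3.76, 5.86, 5.96 and 5.24 in that order, against a median of 5.96 over all rows. Cxcl14 and Crat were in both sets of highest genes, and Hspa8 fell to 0.43 within groups. On knockout control replicate 2, Ppp2ca read 8.07 and the other knockout controls 8.35 to 8.38, as Elk1 read 9.05 there and 9.27 to 9.32 on the others. With group means kept, the correlation of Ppp2ca was 0.26 over the arrays without the 2 farthest, against 0.65 over all 19. By the same measure Nars2 was at 0.19 without those arrays and 0.34 over all 19, B4gat1 at -0.12 and 0.35, and Six6 at 0.42 and 0.56. Among the lowest, H4c8 was at 0.13 without them and -0.07 over all 19.

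**Figure D5:**
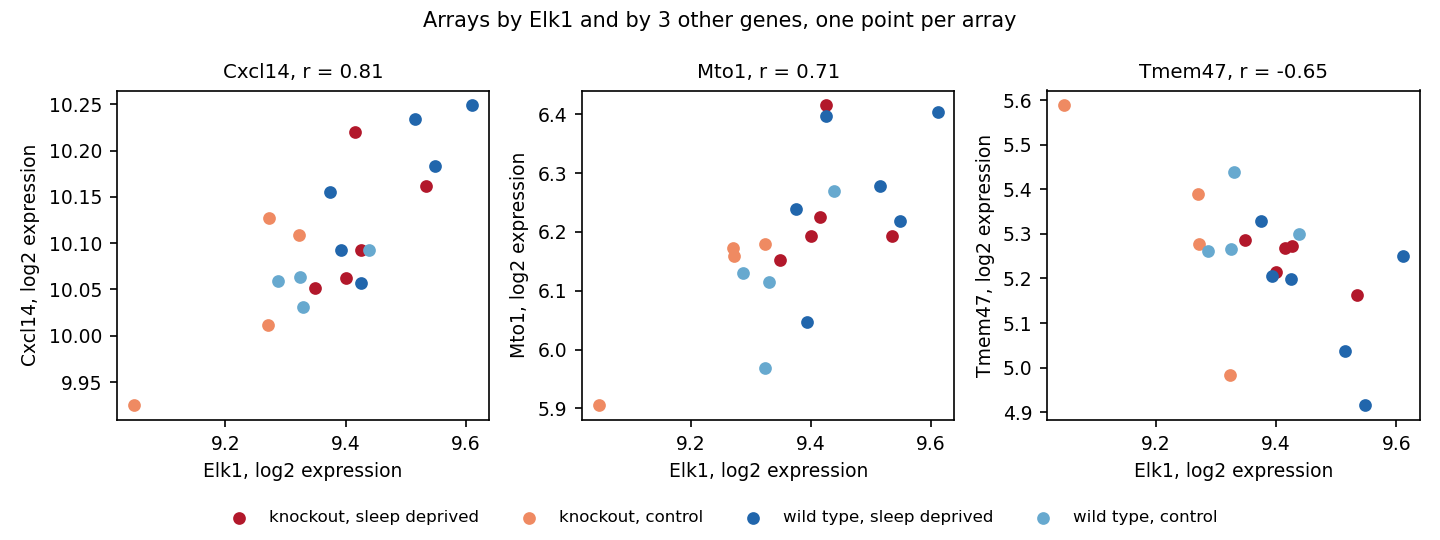
Each of the 19 arrays by its Elk1 value (horizontal, log2) and by its value for Cxcl14, Mto1 or Tmem47 (vertical, log2), coloured by group; these are the 2 genes of highest and the gene of lowest correlation. Knockout control replicate 2 is the point at an Elk1 value of 9.05, apart from the others at 9.27 or above.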

How the data were processed

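Values were deposited by the authors as log2 expression, 1 value per probe set and array. The submitters' processing notes name RMA, oligo and limma without versions. What each was used for, and which build, is not given in the sources used here. Its description calls the deposited tables incomplete. Samples were grouped from their titles. There is no sequencing depth, so precision rests on the number of arrays.

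Genes were named only from rows with 1 symbol (1308 rows, 1121 genes; 1178 rows had several symbols and 6265 were unnamed here), using the row of highest mean. RefSeq identifiers matched 1045 of them. Group means were fitted with limma 3.58.1 in R 4.3.3 on all 19 arrays without covariates, with Benjamini-Hochberg adjustment over 8751 rows. Exact permutation tests used scipy 1.17.1. The script was tested on simulated data. Elk1, the gene lists and the tests were chosen with earlier results of these data known. Named genes were Elk1, all measured list genes, the 4 nearest measured genes on each side, and the 6 highest and 4 lowest correlations. Same-numbered arrays did not deviate together: 0 of 25 pairs across groups had a correlation above 0.1. Of the pairs across groups with different numbers, 14 of 109 were above 0.1, up to 0.30, and what they share was not tested. Alternatives covered scaling, prior, weights, row filters, repeated rows, arrays in the fit, a replicate block and leaving out each array.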

Additional observations from a re-analysis of the deposited data

Results flagged for a closer look

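None of the 4 groups of Elk1 had an array far enough from the rest to be singled out, by a gap test in which the distance to the nearest array is set against the range of the group. Knockout control replicate 2, at 9.05, came nearest, with a ratio of 0.81 against a critical value of 0.829.

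Among 29 named genes in 4 groups each, 6 of 116 gene and group pairs held such an array, where chance alone gives about 1 in 20, or 5.8. On knockout control replicate 2 these were Etv1 at 8.98 (other knockout controls 9.15 to 9.17), Ppp2ca at 8.07 (others 8.35 to 8.38) and Mto1 at 5.91 (others 6.16 to 6.18), all log2 values. Map3k4 read 6.62 on knockout control replicate 4 (others 6.98 to 7.04) and 7.03 on knockout sleep-deprived replicate 4 (others 7.09 to 7.11). Mto1 read 6.42 on knockout sleep-deprived replicate 3 (others 6.15 to 6.23). Some of the 29 genes, Mto1 among them, were picked by their correlation with Elk1 on these arrays. That choice favours genes that were far out where Elk1 was, so the rate of 1 in 20 is only a guide.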

How the results depend on the processing

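Of 272 recomputed values, 271 kept the direction and the side of the threshold or, without a test, moved by less than the SD between arrays. The exception was the Elk1 interaction, at -0.055 with quantile normalization (limma adjusted p = 0.87), against 0.06, and the cause was not tested. Many of the recomputed differences could not move, so the count overstates stability. Prior, row-filter and repeated-row settings return the same difference, as does leaving out an array of a group not compared. The knockout sleep deprivation difference was counted as kept although quantile normalization took it from 0.20 to 0.11. That move was only just under the SD of 0.09. With 1 array left out, the Elk1 genotype difference ran from -0.15 to -0.06 in controls, from -0.08 to -0.03 after sleep deprivation and from -0.10 to -0.05 averaged, and the interaction from 0.003 to 0.10. Sleep deprivation differences ran from 0.14 to 0.23 in the knockout, 0.11 to 0.16 in wild type and 0.13 to 0.18 averaged. These ranges describe the arrays by which Elk1 was chosen and do not test its difference. For the averaged effect, the comparison recomputed, 0 of 7 pathway genes were called. Under the other settings the genotype difference reached -0.16 in controls and -0.11 averaged (both with median centring) and -0.13 after sleep deprivation (quantile normalization). No genotype or interaction call appeared at any setting. For the permutation test in controls this says nothing, as no call was possible there. Adjustment over the 2 conditions lifts even the smallest p that 4 against 4 arrays allow, 0.0286, above 0.05. Leaving out a control array raises that floor. With the replicate number as a block, the averaged genotype difference was -0.10 (limma adjusted p = 0.72), the averaged sleep deprivation difference was 0.16, and no call changed. No pairing by number was seen at the correlation cutoff of 0.1 given above, which does not show that there was none. Leaving out the lowest and the highest Elk1 array together, chosen after seeing the data, gave an averaged sleep deprivation difference of 0.12 and a genotype difference of -0.04. The number of arrays limits what can be told: the interval of the averaged genotype difference spans -0.19 to 0.02.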
